A study of Mus musculus with 96 samples.

Results

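In C2C12 cells, a mouse myoblast line that fuses into myotubes when serum is withdrawn, the expression of 36 genes of sterol and fatty acid synthesis was followed across 96 RNA-seq samples in 35 conditions. The 36 genes were taken by symbol from the 54150 rows of the count table, and every one was found. They comprise 7 enzymes of the mevalonate pathway, 11 enzymes that turn its product into cholesterol, 6 regulators and carriers, 9 enzymes of acetyl-CoA supply and fatty acid synthesis, and 3 targets of the liver X receptors (LXR) that serve as a counterpart. No measured value was used to choose them here, but the list was drawn up with earlier results of these data known.

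Myoblasts were kept in 10% serum and belonged to stable lines made with a lentivirus, in which doxycycline at 300 ng/ml switched on 1 of 4 genes. Control myoblasts expressed luciferase, and the other lines expressed LbNOX (a bacterial enzyme that oxidizes NADH to NAD+ in the cytosol), mitoLbNOX (the same enzyme sent to the mitochondrial matrix) or NDI1 (a yeast NADH dehydrogenase that stands in for complex I). For 10 h they received DMSO, 0.5 µM piericidin (a complex I inhibitor), 0.5 µM antimycin (complex III) or 1 µM oligomycin (ATP synthase), with 3 samples per group; NDI1 myoblasts received DMSO or piericidin, with 2 samples each, and mitoLbNOX myoblasts received no oligomycin. Chloramphenicol, which blocks protein synthesis on mitochondrial ribosomes, was given for 48 h at 20 µg/ml to sparsely seeded control and LbNOX myoblasts (2 samples per group). Myotubes had spent 4 days in low serum, carried no transgene unless stated, and received the inhibitors, the uncoupler BAM15 (0.5 µM), 5% oxygen, or combinations of these with oligomycin (3 samples per group). Other myotubes were transduced with an adenovirus for eGFP alone (2 samples per group) or for eGFP with LbNOX (3 samples), and a further set of untransduced cells was treated after 24 h in low serum (3 samples per group). The 10 h treatments were in media without pyruvate and uridine, and uridine was present in the 48 h groups. Cells kept at 5% oxygen were moved there the night before and stayed there through the treatment. Low serum was 2% dialyzed horse serum, begun once the cells were confluent, while the myoblasts had dialyzed fetal bovine serum. Untransduced myotubes therefore differed from control myoblasts in the kind and amount of serum, seeding density, doxycycline and transgene as well as in state.

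Cholesterol is built from acetyl-CoA through mevalonate, isoprenoid diphosphates, squalene and lanosterol. Most genes of this route, and many of fatty acid synthesis, are transcribed under the sterol regulatory element binding proteins, which are encoded by Srebf1 and Srebf2. These proteins sit in the endoplasmic reticulum bound to the escort protein Scap; when sterols are plentiful, Insig proteins hold the complex back, and when sterols run low it moves to the Golgi, where the active fragment is cut free. LXR acts as the opposite arm: it responds to oxysterols and turns on the cholesterol exporters Abca1 and Abcg1 and the ubiquitin ligase Mylip. Dividing myoblasts make membrane lipid as they grow, which ties this program to proliferation.

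Promoter sequence, the 250 bases before the RefSeq start site, was available for 28 of the 36 genes (GRCm38.p6). From these, 5 stretches are printed so that the letters at which the SREBPs and their partners bind can be seen. Capitals mark matches, on either strand, to the sterol regulatory element TCACNCCAC, the CCAAT box bound by NF-Y (ATTGG when read on the other strand) and the E-box CACGTG. Gene coordinates given further on come from a separate annotation. Its gene starts lie inside the stretches of Idi1, Hsd17b7, Insig1 and Elovl6, and both marked CCAAT boxes of Idi1 lie past that start. Among genes with a single promoter window in the reference, they are the gene with the largest called fall under piericidin in control myoblasts in each of 4 roles, plus the 1 gene among them that held the sterol regulatory element.
Idi1 (chr13:8885356-8885605, plus strand): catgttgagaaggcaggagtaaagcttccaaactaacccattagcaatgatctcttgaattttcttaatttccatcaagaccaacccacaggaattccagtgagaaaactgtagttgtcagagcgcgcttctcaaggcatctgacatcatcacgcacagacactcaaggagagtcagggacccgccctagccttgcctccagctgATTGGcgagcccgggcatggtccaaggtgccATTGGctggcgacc
Hsd17b7 (chr1:169969206-169969455, minus strand): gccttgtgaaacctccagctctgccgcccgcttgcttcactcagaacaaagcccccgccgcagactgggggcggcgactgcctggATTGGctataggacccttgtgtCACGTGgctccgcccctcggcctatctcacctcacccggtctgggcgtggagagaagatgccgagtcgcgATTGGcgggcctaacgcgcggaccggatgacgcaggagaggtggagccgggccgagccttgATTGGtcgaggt
Insig1 (chr5:28071162-28071411, plus strand): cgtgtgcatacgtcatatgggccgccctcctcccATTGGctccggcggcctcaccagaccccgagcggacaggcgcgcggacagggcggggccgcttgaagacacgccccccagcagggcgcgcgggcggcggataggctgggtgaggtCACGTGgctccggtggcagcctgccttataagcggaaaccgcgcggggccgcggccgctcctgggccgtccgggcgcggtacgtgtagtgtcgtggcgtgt
Elovl6 (chr3:129532136-129532385, plus strand): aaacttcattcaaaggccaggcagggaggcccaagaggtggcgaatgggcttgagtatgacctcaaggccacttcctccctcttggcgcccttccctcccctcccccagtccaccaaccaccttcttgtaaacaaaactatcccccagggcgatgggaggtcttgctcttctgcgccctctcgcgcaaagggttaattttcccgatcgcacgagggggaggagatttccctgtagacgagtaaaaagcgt
Hmgcs1 (chr13:119690101-119690350, plus strand): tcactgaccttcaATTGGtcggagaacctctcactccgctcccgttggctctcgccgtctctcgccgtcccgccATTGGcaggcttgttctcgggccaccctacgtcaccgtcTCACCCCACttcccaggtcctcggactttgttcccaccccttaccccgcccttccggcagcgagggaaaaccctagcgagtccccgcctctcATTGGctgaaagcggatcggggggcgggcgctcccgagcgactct

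Counted over the whole window of 300 bases, from 250 before to 50 after the start site, the element TCACNCCAC was present in 1 of the 28 promoters (3.57%) against 1.44% of the promoters of 27025 genes, and its shorter form TCACNCNA, which overlaps it, in 7 of 28 (25.0% against 12.5%). A CCAAT box was found in 22 of 28 (78.6% against 41.1%), including Idi1, Dhcr7, Insig1, Srebf1, Srebf2 and Fasn. The E-box was found in 6 of 28 (21.4% against 8.09%), including Hsd17b7, Dhcr7, Insig1 and Abca1. The Elovl6 stretch held none of these motifs. A match is a description of the letters and not a measured binding site.

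The samples held 6458295 to 15366745 estimated counts (median 10336588.5), and the transgenes matched the labels: luciferase was counted in 16 samples, LbNOX in 34, NDI1 in 4 and eGFP in 15, with 0 counts in every other sample. A member was tested in a fit when every replicate of at least 1 group held 16 or more counts, which 35 of the 36 met in myoblasts; Abca1 did not, with 0, 9 and 0 counts in the 3 control DMSO samples. Summed over 8 myotube markers such as Myh3 and Ckm, the level was 17.4 to 21.5 CPM (counts scaled to a common library size) in control DMSO myoblasts, 10770 to 11360 after 24 h in low serum and 11110 to 11450 in myotubes, so the sum set myoblasts apart from the low-serum cells, while the ranges at 24 h and 4 days overlapped. Reads were not assigned to a strand, so genes with overlapping exons on the other strand are uncertain; the largest such overlaps among members were at Fdft1 (18.3% of its exon bases, with Ctsb), Scap (13.2%) and Hmgcs1 (12.1%), while 26.7% of Fdps and 12.1% of Tm7sf2 overlap a gene on their own strand. Scd1 and Scd2, Fads1 and Fads2, and Acat2 with its near copy Acat3 may share reads. Levels below are CPM after TMM normalization over all 96 libraries and compare samples within a gene only, and sample values are listed in replicate order. A gene is called lower or higher when edgeR's adjusted p, over all genes tested, is under 0.05. Changes given as the largest of a comparison are those of called members with a mean of at least 50 counts in the fit; Abca1 in every fit and Abcg1 in myoblasts were below this, so their changes are given apart and can be larger.

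In control myoblasts, each of the 3 inhibitors of the respiratory chain or ATP synthase lowered nearly the whole list within 10 h. Piericidin lowered 32 of 35 tested members and raised 0, against 30.8% and 30.9% of all genes; the median log2 fold change was -1.30, against -0.004 over all genes. Antimycin lowered 31 and raised 1 (31.1% and 32.1% of all genes, median -0.99), and oligomycin lowered 31 and raised 0 (26.3% and 24.5%, median -1.28). Called falls of at least 1 log2 unit were found at 22, 17 and 22 members respectively, against 11.5%, 12% and 7.19% of all genes. The 3 comparisons share their DMSO samples. Beside each 0 given for a direction, here and in the other comparisons, DESeq2 also called 0 and 0 to 1 members had an unadjusted p under 0.05 in that direction, except where other counts are stated. In bulk RNA, fewer cells of a type and less RNA per cell cannot be told apart.

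The heat map of members by myoblast comparison shows the falls in control cells running through every role. Other gene groups moved in the same samples. The summed level of 5 markers of the integrated stress response (Atf3, Ddit3, Asns, Trib3, Chac1) was 209 to 223 CPM with DMSO, 1780 to 1881 with piericidin, 2312 to 2393 with antimycin and 1259 to 1321 with oligomycin. The summed level of 5 proliferation markers (Mki67, Top2a, Ccnb1, Cdk1, Tk1) was 1251 to 1294 with DMSO, 932 to 987 with piericidin, 686 to 709 with antimycin and 946 to 987 with oligomycin, with 4, 5 and 4 of the 5 called lower and Ccnb1 called higher under piericidin. All 3 control DMSO libraries lay in outer wells, as the position codes read (they do not say whether of the culture or the library plate), against 1, 0 and 1 of the 3 libraries of the inhibitors; with the well as a covariate, 33, 27 and 32 members were called. The summed level of the 8 myotube markers was 26.6 to 33.0 CPM with piericidin, 83.5 to 92.4 with antimycin and 22.4 to 31.1 with oligomycin, against 17.4 to 21.5 with DMSO. A list of 5 genes taken as myoblast markers (Myf5, Myod1, Cdh15, Vcam1, Des) did not mark this state, since its sum was 672 to 696 CPM in DMSO myoblasts and 4282 to 4442 in DMSO myotubes, most of it Des. Its sum was 614 to 627 CPM with piericidin, 832 to 885 with antimycin and 556 to 588 with oligomycin. Within it Myf5 rose (log2 fold changes 2.39, 3.62 and 0.53 with piericidin, antimycin and oligomycin) while Vcam1 fell (-1.83, -1.49 and -0.65). The part of these marker changes in the falls was not tested.

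**Figure D1:**
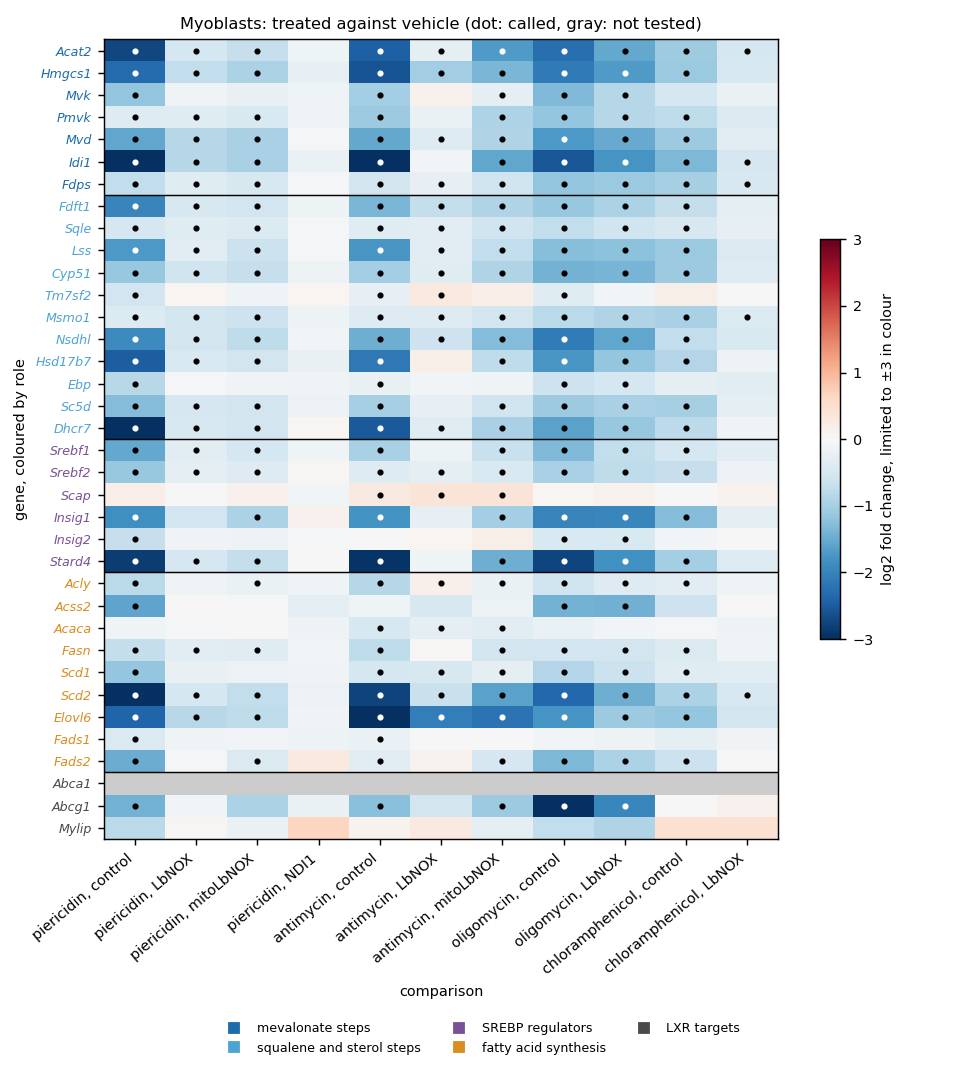
Log2 fold changes (colour, limited to plus and minus 3) of the members (rows, by role) in 11 myoblast comparisons (columns); dots mark edgeR adjusted p under 0.05 and gray marks Abca1, which was not tested. The columns of control myoblasts are blue in nearly every row, and the NDI1 column holds no dot.

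All 7 enzymes of the mevalonate pathway were called lower with each inhibitor (median log2 fold change -1.56 with piericidin, -1.53 with antimycin and -1.72 with oligomycin). Idi1 (ENSMUSG00000058258, chr13:8885501-8892451, plus strand), which isomerizes isopentenyl diphosphate, held 159, 154 and 151 CPM in the DMSO samples, 15.1, 16.5 and 19.2 with piericidin, 13.8, 13.2 and 14.2 with antimycin and 27.6, 25.9 and 24.0 with oligomycin. No treated sample came near a DMSO sample, and the antimycin samples were the lowest. The mean was 9.13 times lower with piericidin (log2 fold change -3.15, SE 0.083, edgeR adjusted p = 4.78e-24), 11.3 times lower with antimycin (log2 fold change -3.45, SE 0.084, edgeR adjusted p = 7.41e-25) and 5.99 times lower with oligomycin (log2 fold change -2.57, SE 0.078, edgeR adjusted p = 4.07e-22).

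Acat2 (ENSMUSG00000023832, chr17:12942890-12960747, minus strand), the cytosolic thiolase that joins acetyl-CoA units at the entry to the pathway, held 122, 121 and 112 CPM with DMSO, 16.4, 17.4 and 18.3 with piericidin, 20.2, 20.9 and 21.4 with antimycin and 26.8, 23.2 and 23.3 with oligomycin. All 9 treated samples were far below the 3 DMSO samples, and the treatments kept an order of piericidin, antimycin and oligomycin from low to high without overlap. Its log2 fold changes were -2.73 (SE 0.07), -2.46 (SE 0.069) and -2.26 (SE 0.068) in that order. Hmgcs1 (ENSMUSG00000093930, chr13:119690379-119708260, plus strand), the cytosolic synthase of the next step, held 209.7, 205 and 211 CPM with DMSO and 29.1 to 48.3 CPM in the 9 treated samples, with log2 fold changes of -2.32 (SE 0.068), -2.59 (SE 0.069) and -2.13 (SE 0.067). Mvd, the decarboxylase, had log2 fold changes of -1.56, -1.53 and -1.72, and the kinase Mvk -1.18, -1.01 and -1.32. The second kinase, Pmvk, fell by less with piericidin (-0.39) than with antimycin (-1.10), and the direct comparison of the inhibitors gave -0.71 (SE 0.12, edgeR adjusted p = 1.84e-05). Fdps, which makes farnesyl diphosphate, had -0.75 and -0.55 with piericidin and antimycin and -1.19 under oligomycin, the last being the lowest in direct comparison.

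From squalene to cholesterol, all 11 enzymes were again called lower with each inhibitor (medians -1.30, -1.03 and -1.14). With piericidin and antimycin the largest fall was at Dhcr7 (ENSMUSG00000058454, chr7:143823145-143848410, plus strand), the reductase of a final step of the pathway, with 32.5, 29.9 and 28.4 CPM in DMSO samples, 4.54, 2.87 and 3.59 with piericidin, 5.73, 5.67 and 3.92 with antimycin and 9.09, 11.3 and 9.11 with oligomycin. The oligomycin samples lay between the DMSO samples and those of the other inhibitors with no overlap. Its log2 fold changes were -3.01 (SE 0.16), -2.51 (SE 0.15) and -1.60 (SE 0.14). Hsd17b7, a reductase of sterol demethylation whose promoter above holds 3 CCAAT boxes and an E-box, held 27.9, 27.5 and 25.7 CPM with DMSO and 3.86 to 9.09 in the treated samples (log2 fold changes -2.46, -2.14 and -1.75).

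The squalene synthase Fdft1 fell by 4.01 times with piericidin (log2 fold change -1.97, SE 0.08, edgeR adjusted p = 3.05e-19), with 20.8, 25.6 and 19.7 CPM against 91.3, 89.3 and 84.7, and by less with antimycin and oligomycin (-1.38 and -1.14). Nsdhl, which takes part in sterol demethylation, had log2 fold changes of -1.91, -1.45 and -2.09 for piericidin, antimycin and oligomycin, and the lanosterol demethylase Cyp51 had -1.14, -1.03 and -1.42. For lanosterol synthase, Lss, they were -1.71, -1.75 and -1.28 in the same order, and for the desaturase Sc5d -1.30, -0.99 and -1.08. Other steps moved less. Squalene monooxygenase, Sqle, a slow step of the pathway, fell by only 1.46, 1.33 and 1.69 times in that order, and Msmo1 by 1.35, 1.35 and 1.77 times. The isomerase Ebp and the reductase Tm7sf2 had the smallest falls with antimycin (-0.21 and -0.23). Their calls with antimycin were lost without control antimycin replicate 3 (-0.18) for Ebp and without control antimycin replicate 3 or control DMSO replicate 1 (-0.21 to -0.18) for Tm7sf2.

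The 6 regulators and carriers split. Srebf1 (ENSMUSG00000020538, chr11:60199089-60222581, minus strand) held 100.3, 94.2 and 98.2 CPM with DMSO, 31.9, 36.6 and 30.0 with piericidin, 45.0, 53.0 and 45.9 with antimycin and 40.9, 37.9 and 37.4 with oligomycin. No treated sample reached the DMSO range, and the antimycin samples were the highest of the treated ones. Its log2 fold changes were -1.54 (SE 0.083), -0.98 (SE 0.08) and -1.32 (SE 0.081). Srebf2 (ENSMUSG00000022463, chr15:82147181-82205379, plus strand), the form that drives sterol enzymes most strongly, held 133, 135 and 138 CPM with DMSO, 57.9, 62.0 and 59.3 with piericidin, 97.4, 104 and 98.4 with antimycin and 75.9, 66.9 and 63.4 with oligomycin. Again no samples overlapped, and the fall with antimycin (log2 fold change -0.39, SE 0.062, edgeR adjusted p = 2.5e-06) was smaller than with piericidin (log2 fold change -1.14, SE 0.063, edgeR adjusted p = 7.57e-16) or oligomycin (log2 fold change -0.96, SE 0.063, edgeR adjusted p = 5.94e-14).

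Insig1 (ENSMUSG00000045294, chr5:28071363-28078662, plus strand), itself a target of the SREBPs and a retainer of their escort complex, varied widely among the DMSO samples, at 34.3, 89.6 and 72.7 CPM, and held 15.7, 17.0 and 21.3 with piericidin, 21.2, 15.3 and 18.8 with antimycin and 19.8, 14.3 and 14.8 with oligomycin. Even its lowest DMSO sample lay above all 9 treated ones, and the log2 fold changes were -1.83 (SE 0.23), -1.79 (SE 0.23) and -2.00 (SE 0.23). Insig2, its paralog, fell with piericidin (-0.69) and oligomycin (-0.46) and had -0.006 with antimycin, not called. Stard4, a soluble sterol carrier, was among the most lowered genes of the list, from 28.9, 29.7 and 24.9 CPM with DMSO to 2.95, 3.75 and 4.54 with piericidin, 4.54, 2.50 and 3.46 with antimycin and 4.77, 4.34 and 3.0 with oligomycin (log2 fold changes -2.85, -2.93 and -2.75). Scap, the escort, rose with antimycin (log2 fold change 0.28, SE 0.093, edgeR adjusted p = 0.0102) and was not called with piericidin (0.20) or oligomycin (0.048). The Scap call was lost without control antimycin replicate 3 or control DMSO replicate 3 (0.16 to 0.19).

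Among the 9 genes of acetyl-CoA supply and fatty acid synthesis, 8 fell with piericidin, 8 with antimycin and 7 with oligomycin (medians -1.17, -0.53 and -0.88). The desaturase Scd2 (ENSMUSG00000025203, chr19:44293674-44306864, plus strand), which makes monounsaturated fatty acids, held 641, 619.9 and 656 CPM with DMSO, 61.0, 61.3 and 56.1 with piericidin, 88.7, 88.8 and 95.2 with antimycin and 126, 132 and 114 with oligomycin. The 4 groups were separate from each other, and the mean was 10.7, 7.03 and 5.14 times lower (log2 fold change -3.39, SE 0.05, edgeR adjusted p = 3.28e-30 with piericidin). Elovl6 (ENSMUSG00000041220, chr3:129532355-129638495, plus strand), the elongase of palmitate, whose promoter stretch held none of the motifs, showed another order, with 68.8, 64.2 and 64.2 CPM with DMSO, 11.7, 12.2 and 12.3 with piericidin, 5.92, 7.49 and 8.30 with antimycin and 19.6, 17.1 and 21.0 with oligomycin. Its log2 fold changes were -2.40 (SE 0.12), -3.14 (SE 0.13) and -1.76 (SE 0.12), with antimycin the lowest also in direct comparison.

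The core enzymes of fatty acid synthesis changed less. Fasn, the synthase, had log2 fold changes of -0.72, -0.76 and -0.58, and Acly, which makes cytosolic acetyl-CoA from citrate, -0.81, -0.85 and -0.60 with piericidin, antimycin and oligomycin. Acaca, the acetyl-CoA carboxylase at the committed step, was called only with antimycin (-0.47), and its values with piericidin and oligomycin were -0.13 and -0.19. Acss2, which activates acetate, fell with piericidin (-1.58) and oligomycin (-1.41) and had -0.13 and no call with antimycin. Fads2, a desaturase of polyunsaturated fatty acids, likewise fell least with antimycin (-1.5, -0.31 and -1.36). The antimycin call of Fads2 was lost without control antimycin replicate 2 or 3 or control DMSO replicate 2 (-0.33 to -0.24). Scd1, the close relative of Scd2, had -1.17, -0.53 and -0.88. Fads1 had -0.43, -0.19 and -0.076, the last not called.

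No LXR target was called higher. Abcg1, an exporter of cholesterol to lipoproteins, was at a low level, 2.97, 3.25 and 1.86 CPM with DMSO, 0.681, 1.21 and 1.06 with piericidin, 0.691, 1.70 and 0.923 with antimycin and 0.360, 0 and 0.115 with oligomycin. Every treated sample was below every DMSO sample, and it was called lower with all 3 inhibitors (-1.41, -1.25 and -3.98), although the call with antimycin was lost without control antimycin replicate 1 or 3 or control DMSO replicate 2 (-1.15 to -0.99). Mylip held 3.44, 12.7 and 5.94 CPM in the DMSO samples, overlapped with each treated group, and was not called (-0.80, 0.10 and -0.74). Abca1 held between 0 and 1 counts in each of the 9 treated control samples.

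Set directly against one another in control myoblasts, the inhibitors differed by gene. Antimycin gave lower levels than oligomycin at 11 members and higher levels at 15 (23.9% and 26.1% of all genes); for example, it was lower at Elovl6 (-1.38), Dhcr7 (-0.91) and Idi1 (-0.88), and higher at Acss2 (1.28), Fads2 (1.04), Fdps (0.64) and Nsdhl (0.63). Piericidin was lower than oligomycin at 15 and higher at 6 (19.2% and 20.0% of all genes), with the largest differences, among members with a mean of at least 50 counts, at Dhcr7 (-1.4), Scd2 (-1.04), Fdft1 (-0.83) and Hsd17b7 (-0.71) on the low side and Pmvk (0.78) on the high side. Antimycin was lower than piericidin at 5 and higher at 16 (17.9% and 19.3% of all genes), with the largest differences at Acss2 (1.46), Fads2 (1.19), Srebf2 (0.75), Elovl6 (-0.74), Pmvk (-0.71), Insig2 (0.68), Scd1 (0.64) and Scd2 (0.62). By these tests Elovl6 and Idi1 were lowest with antimycin, Dhcr7, Scd2 and Acat2 with piericidin, and Fdps and Cyp51 with oligomycin. Among the regulators and LXR targets, antimycin against oligomycin gave 0.34 for Srebf1, 0.57 for Srebf2, 2.72 for Abcg1 and 0.21 to 0.84, not called, for Insig1 and Mylip. Piericidin against oligomycin gave -0.22 for Srebf1, -0.18 for Srebf2, 2.56 for Abcg1 and -0.061 to 0.17, not called, for Insig1 and Mylip. Antimycin against piericidin gave 0.56 for Srebf1, 0.75 for Srebf2 and 0.047 to 0.90, not called, for Insig1, Abcg1 and Mylip. The calls of piericidin against oligomycin were lost for Srebf1 without control oligomycin replicate 1, 2 or 3 or control piericidin replicate 1 or 3 (-0.24 to -0.15) and for Srebf2 without control oligomycin replicate 1 or control piericidin replicate 1 or 3 (-0.17 to -0.11).

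With LbNOX in the cytosol, most members responded less to piericidin and antimycin than in control cells, and 8 responded less to oligomycin. Before treatment, the LbNOX line had 2 members lower than control cells (2.68% of all genes called in either direction), Scd2 (-0.21) and Msmo1 (-0.19); the call of Msmo1 was lost without LbNOX DMSO replicate 2 or 3 or control DMSO replicate 1, 2 or 3 (-0.21 to -0.17), which left 1 member called. The regulators and LXR targets had -0.17 to 0.37, not called, for Srebf1, Srebf2, Insig1, Abcg1 and Mylip. Piericidin lowered 21 members and raised 0 in LbNOX cells (3.86% and 5.01% of all genes, median -0.36). Oligomycin lowered 30 and raised 0 (17.7% and 17.5%, median -0.96). Antimycin lowered 16 and raised 3 (22.9% and 23.3%, median -0.25), the raised ones being Tm7sf2 (0.29), Scap (0.38) and Acly (0.15), the last not called without LbNOX antimycin replicate 1 or 3 or LbNOX DMSO replicate 1, 2 or 3 (0.12 to 0.16).

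Idi1 in LbNOX cells held 156, 146 and 145 CPM with DMSO, 78.3, 87.0 and 76.3 with piericidin, 144, 136 and 127 with antimycin and 43.5, 40.4 and 44.7 with oligomycin. The antimycin samples lay just below the DMSO samples (not called), the piericidin samples lay lower, and the oligomycin samples were the lowest. The difference from the log2 fold change in control cells, tested as an interaction, was 2.29 (SE 0.11) for piericidin, 3.36 (SE 0.11) for antimycin and 0.80 (SE 0.11) for oligomycin. Dhcr7 held 26.6, 33.1 and 31.6 with DMSO, 21.2, 20.7 and 22.3 with piericidin, 25.2, 21.7 and 22.2 with antimycin and 14.8, 11.2 and 14.5 with oligomycin. All treated samples were below the DMSO samples, but by far less than in control cells for the first pair of inhibitors (interaction 2.53 and 2.15, and 0.47 with no call for oligomycin).

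Over the list, the interaction was called higher, that is, with a smaller fall in LbNOX cells, at 28 members for piericidin (22.3% of all genes, median difference 0.94), 22 for antimycin (24.7%, median 0.74) and 8 for oligomycin (3.80%, median 0.21). The largest were Scd2 (2.87), Dhcr7 (2.53), Stard4 (2.36), Idi1 (2.29), Acat2 (2.20), Hsd17b7 (2.01), Acss2 (1.58) and Hmgcs1 (1.57) for piericidin and Idi1 (3.36), Stard4 (2.81), Hsd17b7 (2.31), Acat2 (2.19), Dhcr7 (2.15), Scd2 (2.10), Insig1 (1.55) and Hmgcs1 (1.55) for antimycin. The 8 for oligomycin were Stard4 (0.94), Scd2 (0.88), Idi1 (0.80), Acat2 (0.73), Elovl6 (0.68), Srebf1 (0.59), Nsdhl (0.54) and Hmgcs1 (0.42), of which Nsdhl lost its call without LbNOX DMSO replicate 1, 2 or 3, control DMSO replicate 2 or 3, LbNOX oligomycin replicate 1 or 2 or control oligomycin replicate 1, 2 or 3 (0.47 to 0.57). In LbNOX cells the largest of the 21 falls with piericidin were Idi1 (-0.86), Mvd (-0.85), Elovl6 (-0.83), Hmgcs1 (-0.75), Cyp51 (-0.60), Nsdhl (-0.56), Msmo1 (-0.55) and Acat2 (-0.53); the largest of the 30 with oligomycin, among members with a mean of at least 50 counts, were Insig1 (-1.96), Stard4 (-1.81), Idi1 (-1.76), Hmgcs1 (-1.71), Nsdhl (-1.55), Acat2 (-1.52), Mvd (-1.52) and Scd2 (-1.47).

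Antimycin in LbNOX cells gave a pattern of its own. Elovl6 still fell, from 68.7, 65.9 and 72.6 CPM with DMSO to 14.9, 14.3 and 18.7 with antimycin, well clear of the DMSO samples (log2 fold change -2.07, SE 0.12, edgeR adjusted p = 6.15e-15), while Idi1 (-0.093), Stard4 (-0.12), Hsd17b7 (0.17) and Fasn (0.024) were not called. The other largest changes were Hmgcs1 (-1.04), Fdft1 (-0.71), Scd2 (-0.67), Nsdhl (-0.61), Scd1 (-0.48), Mvd (-0.38) and Msmo1 (-0.38), with the call of Mvd lost without LbNOX antimycin replicate 1 or 2 or LbNOX DMSO replicate 1 or 2 (-0.40 to -0.33).

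For regulators and LXR targets of LbNOX cells, piericidin gave -0.32 for Srebf1, -0.27 for Srebf2 and -0.57 to 0.04, not called, for Insig1, Abcg1 and Mylip, with the call of Srebf1 lost without LbNOX piericidin replicate 3 (-0.25). Antimycin gave -0.29 for Srebf2 and -0.55 to 0.27, not called, for Srebf1, Insig1, Abcg1 and Mylip. Oligomycin gave -0.73 for Srebf1, -0.76 for Srebf2, -1.96 for Insig1, -1.96 for Abcg1 and -0.90, not called, for Mylip. The interactions of the same genes were 1.21 for Srebf1, 0.87 for Srebf2, 1.26 for Insig1 and 0.84 to 1.32, not called, for Abcg1 and Mylip with piericidin. With antimycin they were 0.84 for Srebf1, 1.55 for Insig1 and 0.10 to 0.70, not called, for Srebf2, Abcg1 and Mylip. With oligomycin they were 0.59 for Srebf1 and -0.16 to 2.02, not called, for Srebf2, Insig1, Abcg1 and Mylip, so that Srebf1 was called for all 3 inhibitors. The stress marker sum in LbNOX cells was 204 to 229.5 CPM with DMSO, 417 to 436 with piericidin, 513 to 557 with antimycin and 917 to 981 with oligomycin. The proliferation sum was 1217 to 1243, 1000 to 1114, 715 to 755 and 916 to 978 CPM in the same order. The myotube marker sum was 15.6 to 22.4, 29.8 to 37.1, 32 to 39.0 and 23.0 to 24.6 CPM, and the part of these was not tested.

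With mitoLbNOX in the matrix, piericidin lowered 24 members and raised 0 (4.82% and 6.37% of all genes, median -0.53), and antimycin lowered 28 and raised 1, Scap (22.9% and 24.8%, median -0.60). Idi1 held 143, 126 and 119 CPM with DMSO, 68.0, 65.3 and 60.3 with piericidin and 42.3, 41.9 and 43.3 with antimycin. The 3 groups were separate, with antimycin lowest. Scd2 showed the same order, at 510.5, 526 and 479.9 with DMSO, 316, 295 and 287 with piericidin and 163, 158 and 166 with antimycin. Their log2 fold changes were -0.98 (SE 0.073) and -0.73 (SE 0.044) with piericidin and -1.56 (SE 0.075) and -1.59 (SE 0.045) with antimycin. The other largest falls, among members with a mean of at least 50 counts, were Mvd (-0.98), Hmgcs1 (-0.95), Insig1 (-0.94), Nsdhl (-0.76), Elovl6 (-0.75) and Stard4 (-0.71) with piericidin and Elovl6 (-2.22), Acat2 (-1.71), Stard4 (-1.47), Hmgcs1 (-1.38), Nsdhl (-1.30) and Insig1 (-1.01) with antimycin.

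Against control cells, the mitoLbNOX interaction was higher at 28 members and lower at 1 for piericidin (21.5% and 21.4% of all genes, median 0.75) and higher at 15 and lower at 1 for antimycin (15.4% and 16.3%, median 0.26). The largest were Scd2 (2.66), Dhcr7 (2.45), Idi1 (2.17), Stard4 (2.14), Acat2 (2.04), Hsd17b7 (1.92), Elovl6 (1.65) and Acss2 (1.54) for piericidin and Idi1 (1.89), Dhcr7 (1.53), Stard4 (1.46), Hsd17b7 (1.37), Hmgcs1 (1.21), Scd2 (1.18), Lss (1.01) and Elovl6 (0.93) for antimycin. The lower ones, where the fall was larger with mitoLbNOX, were Msmo1 for piericidin (-0.21) and Sqle for antimycin (-0.23), both among the genes that moved least in control cells. The call of Msmo1 was lost without mitoLbNOX DMSO replicate 1 or mitoLbNOX piericidin replicate 3 (-0.16) and that of Sqle without control antimycin replicate 1 or 2, mitoLbNOX antimycin replicate 1 or 2, control DMSO replicate 1 or 3 or mitoLbNOX DMSO replicate 1 or 2 (-0.23 to -0.18). Before treatment, 4 members were lower in mitoLbNOX than in control cells (1.77% of all genes in either direction): Scd2 (-0.34), Msmo1 (-0.30), Hmgcs1 (-0.29) and Fdps (-0.19). The call of Hmgcs1 was lost without mitoLbNOX DMSO replicate 2 (-0.25) and that of Fdps without control DMSO replicate 1, 2 or 3 or mitoLbNOX DMSO replicate 1 or 3 (-0.21 to -0.17).

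Among the regulators and LXR targets of mitoLbNOX cells, the difference from control cells before treatment was -0.18 to 0.63, not called, for Srebf1, Srebf2, Insig1, Abcg1 and Mylip. Piericidin gave -0.53 for Srebf1, -0.40 for Srebf2, -0.94 for Insig1 and -0.95 to -0.21, not called, for Abcg1 and Mylip. Antimycin gave -0.66 for Srebf1, -0.46 for Srebf2, -1.01 for Insig1, -1.09 for Abcg1 and -0.27, not called, for Mylip. Their interactions were 1.01 for Srebf1, 0.75 for Srebf2, 0.89 for Insig1 and 0.46 to 0.59, not called, for Abcg1 and Mylip with piericidin. With antimycin they were 0.32 for Srebf1 and -0.37 to 0.77, not called, for Srebf2, Insig1, Abcg1 and Mylip. Calls were lost for Abcg1 with antimycin without mitoLbNOX antimycin replicate 1 or 2 or mitoLbNOX DMSO replicate 1 or 3 (-1.09 to -0.89), for the Insig1 interaction without control DMSO replicate 2, control piericidin replicate 1 or mitoLbNOX piericidin replicate 2 (0.59 to 0.81) and for the Srebf1 interaction with antimycin without control antimycin replicate 1 or 3, mitoLbNOX antimycin replicate 1, control DMSO replicate 1 or mitoLbNOX DMSO replicate 2 or 3 (0.28 to 0.30). The stress marker sum was 252 to 277 CPM with DMSO, 645 to 687 with piericidin and 1657 to 1749 with antimycin. The proliferation sum was 1175 to 1247, 996 to 1031 and 721 to 758 CPM. The myotube marker sum was 14.6 to 20.0, 29.1 to 35.5 and 59.1 to 63.0 CPM, and the part of these was not tested.

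In NDI1 myoblasts no member was called lower or higher with piericidin: edgeR called 0 of 35 at an adjusted p under 0.05, with 4 at an unadjusted p under 0.05, and DESeq2 also called 0 (0.00835% of all genes called). The median log2 fold change was -0.11, with a range from -0.29 to 0.64. Idi1 held 132 and 156 CPM with DMSO and 130.3 and 114 with piericidin. Dhcr7 held 27.6 and 26.2 CPM with DMSO and 30.0 and 24.7 with piericidin. The piericidin samples of Idi1 lay just below its DMSO samples without a call (log2 fold change -0.20, SE 0.087, edgeR adjusted p = 0.576), and those of Dhcr7 overlapped with DMSO (log2 fold change 0.053, SE 0.15, edgeR adjusted p = 0.949). The interaction with control cells was higher at 30 members (21.2% of all genes, median 1.21), led by Scd2 (3.22), Dhcr7 (3.06), Idi1 (2.95), Stard4 (2.84), Acat2 (2.61), Elovl6 (2.29), Hsd17b7 (2.23) and Hmgcs1 (2.08). The regulators and LXR targets had -0.21 to 0.64, not called, for Srebf1, Srebf2, Insig1, Abcg1 and Mylip in NDI1 cells. Their interactions were 1.4 for Srebf1, 1.18 for Srebf2, 1.96 for Insig1 and 1.21 to 1.44, not called, for Abcg1 and Mylip. Before treatment, 4 members were lower in NDI1 than in control cells (4.61% of all genes in either direction), Msmo1 (-0.34), Scd2 (-0.31), Srebf2 (-0.25) and Sqle (-0.23), and 2 were called without control DMSO replicate 1 or 2 or NDI1 DMSO replicate 1 or 2. Srebf2 lost its call without control DMSO replicate 1, 2 or 3 or NDI1 DMSO replicate 1 or 2 (-0.26 to -0.23) and Sqle without control DMSO replicate 1 or 2 or NDI1 DMSO replicate 1 or 2 (-0.28 to -0.20). Both DMSO libraries and 0 of 2 piericidin libraries of this line lay in outer wells. The stress marker sum in NDI1 cells was 306 to 313 CPM with DMSO, against 209 to 223 in control cells, and 325 to 354 with piericidin. The proliferation sum was 1231 to 1304 CPM with DMSO and 1118 to 1184 with piericidin. For the myotube markers it was 13.5 to 13.7 and 10.3 to 15.0 CPM. The part of these sums was not tested.

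**Figure D2:**
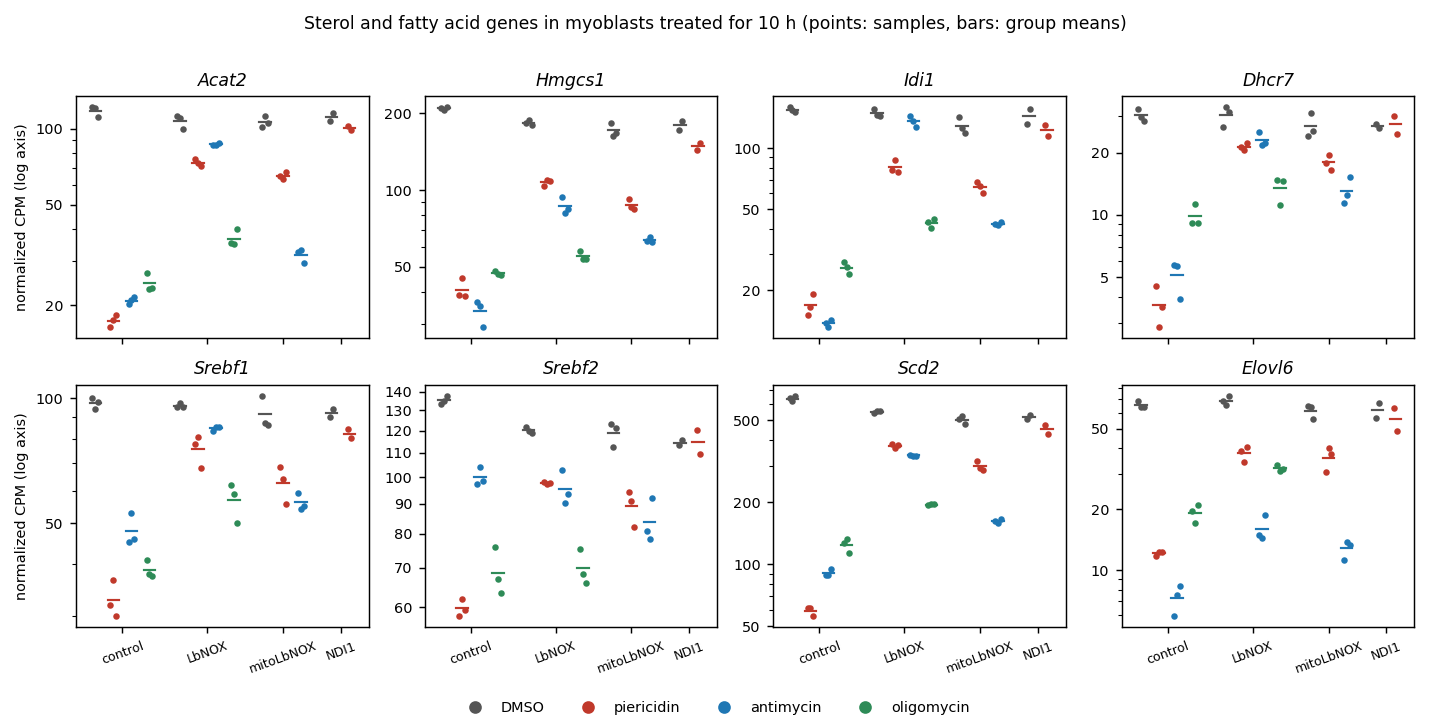
Levels (CPM, log axis) of 8 members in myoblasts after 10 h, by line and treatment; points are samples and bars are group means (n = 3, and 2 for NDI1). With piericidin, the Idi1 samples reach at most 19.2 CPM in control cells, lie from 60.3 to 87.0 in LbNOX and mitoLbNOX cells, and are no lower than 114.5 in NDI1 cells.

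Chloramphenicol, which acts on mitochondrial protein synthesis rather than on an enzyme of the chain, lowered 25 members in control myoblasts after 48 h and raised 0 (3.62% and 4.83% of all genes, median -0.71). The genes were the mevalonate enzymes (6 of 7), the sterol enzymes (9 of 11), 4 of 6 regulators and 6 of 9 fatty acid genes. Idi1 held 164 and 194 CPM with DMSO and 68.0 and 68.6 with chloramphenicol. Insig1 held 102 and 112 CPM with DMSO and 42.3 and 40.9 with chloramphenicol. For both genes the treated samples were below both DMSO samples (log2 fold change -1.34, SE 0.078, edgeR adjusted p = 1.56e-05 for Idi1). The largest falls were Idi1 (-1.34), Insig1 (-1.31), Elovl6 (-1.17), Hmgcs1 (-1.11), Lss (-1.11), Cyp51 (-1.09), Mvd (-1.08) and Acat2 (-1.07). The regulators and LXR targets had -0.54 for Srebf1, -0.68 for Srebf2, -1.31 for Insig1 and -0.005 to 0.46, not called, for Abcg1 and Mylip, where the call of Srebf1 was lost without control chloramphenicol replicate 1 or 2 or control DMSO replicate 2 (-0.59 to -0.39). Fdps and Msmo1, which fell by 1.72 and 1.35 times with piericidin for 10 h, fell by 2.06 and 2.03 times here, but time, seeding density, uridine and fit differ between the experiments.

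In LbNOX myoblasts chloramphenicol lowered 5 members and raised 0 (0.256% and 0.675% of all genes, median -0.29, 19 at an unadjusted p under 0.05), namely Acat2 (-0.54), Idi1 (-0.51), Scd2 (-0.47), Fdps (-0.47) and Msmo1 (-0.41). This count rests on single libraries, with 0 to 1 members called without LbNOX chloramphenicol replicate 1 or 2 or LbNOX DMSO replicate 2, where a lone sample is taken to vary like the other groups. The interaction with LbNOX was called at 3 members (0.0769% of all genes), Idi1 (0.83), Acat2 (0.54) and Fdps (0.52), with 0 to 1 called without LbNOX chloramphenicol replicate 1 or 2, control chloramphenicol replicate 1 or 2, LbNOX DMSO replicate 1 or 2 or control DMSO replicate 2, but with 14 called without the low-count filter, 11 with DESeq2 and 8 with the well as a covariate. The regulators and LXR targets had -0.34 to 0.46, not called, for Srebf1, Srebf2, Insig1, Abcg1 and Mylip in LbNOX cells, and their interactions were -0.003 to 1.01, not called, for Srebf1, Srebf2, Insig1, Abcg1 and Mylip. The stress sum was 177 to 179.8 CPM with DMSO and 674 to 734 with chloramphenicol in control cells, and 188 to 204 with DMSO and 391 with chloramphenicol in LbNOX cells. The proliferation sum was 1232 to 1319 CPM with DMSO and 1085 to 1099 with chloramphenicol in control cells, and 1229 to 1235 and 1150 to 1197 in LbNOX cells, without overlap in either. The part of these sums was not tested.

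In untransduced myotubes the same inhibitors moved the list far less. Piericidin lowered 11 of 36 members and raised 1 (4.84% and 4.15% of all genes, median -0.18), antimycin lowered 16 and raised 1 (6.27% and 6.64%, median -0.24), and oligomycin lowered 17 and raised 3 (16.4% and 16.9%, median -0.19). No called change reached 1 log2 unit. Idi1 held 135, 142 and 141 CPM with DMSO, 109, 113 and 107 with piericidin, 103, 100.5 and 99.7 with antimycin and 105, 98.4 and 91.5 with oligomycin. All 9 treated samples were below the DMSO samples, by 1.27, 1.38 and 1.42 times in the means. Cyp51 had log2 fold changes of -0.41 (SE 0.048), -0.44 (SE 0.047) and -0.28 (SE 0.047), and Ebp -0.27 (SE 0.058), -0.41 (SE 0.058) and -0.38 (SE 0.058).

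Dhcr7, which had fallen in control myoblasts, rose in myotubes with each inhibitor, from 65.8, 70.5 and 76.1 CPM with DMSO to 91.9, 86.3 and 86.5 with piericidin, 99.4, 90.1 and 84.0 with antimycin and 82.1, 74.0 and 85.8 with oligomycin. The piericidin and antimycin samples were above all DMSO samples and 1 oligomycin sample was not. The log2 fold changes were 0.32 (SE 0.072, edgeR adjusted p = 0.0046), 0.38 (SE 0.071, edgeR adjusted p = 0.000612) and 0.19 (SE 0.071, edgeR adjusted p = 0.0425). Oligomycin also raised Acaca (0.57) and Fads1 (0.28). The other largest changes with piericidin were Cyp51 (-0.41), Mvk (-0.38), Nsdhl (-0.37), Idi1 (-0.34), Fdft1 (-0.34), Sqle (-0.33) and Scd2 (-0.29). With antimycin they were Idi1 (-0.45), Cyp51 (-0.44), Fasn (-0.44), Ebp (-0.41), Nsdhl (-0.39), Fdft1 (-0.37) and Mvk (-0.37). With oligomycin they were Insig1 (-0.60), Idi1 (-0.50), Acat2 (-0.49), Srebf1 (-0.44), Fdft1 (-0.42), Fads2 (-0.42) and Acss2 (-0.40). Among the regulators and LXR targets, piericidin gave -0.28 to 0.30, not called, for Srebf1, Srebf2, Insig1, Abca1, Abcg1 and Mylip. Antimycin gave -0.31 for Srebf1, -0.35 for Insig1 and -0.24 to 0.17, not called, for Srebf2, Abca1, Abcg1 and Mylip. Oligomycin gave -0.44 for Srebf1, -0.60 for Insig1 and -0.64 to 0.58, not called, for Srebf2, Abca1, Abcg1 and Mylip. The call of Dhcr7 with oligomycin was lost without myotube DMSO replicate 1 or 2 or myotube oligomycin replicate 1 or 3 (0.14 to 0.19). Calls were lost for Mvk with piericidin without myotube DMSO replicate 1 or 3 or myotube piericidin replicate 2 (-0.37 to -0.30), for Mvk with antimycin without myotube antimycin replicate 1 or myotube DMSO replicate 1 or 3 (-0.36 to -0.29) and for Srebf1 with antimycin without myotube antimycin replicate 1 or 2 or myotube DMSO replicate 1 or 3 (-0.31 to -0.27). The stress marker sum in myotubes was 158 to 165 CPM with DMSO, 185 to 194 with piericidin, 291 to 310.0 with antimycin and 1182 to 1208 with oligomycin. The sum of the 8 myotube markers was 11110 to 11450 CPM with DMSO and, without overlap, 13240 to 13530, 12640 to 12760 and 13480 to 13710 with the inhibitors. The proliferation sum was 117 to 145 CPM with DMSO, 118 to 123 with piericidin, 101 to 110 with antimycin and 126 to 136 with oligomycin. Only the antimycin range was clear of DMSO. The part of these sums was not tested.

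BAM15, which uncouples the inner membrane so that respiration runs without ATP synthesis, lowered 19 members and raised 2 (12.2% and 13.2% of all genes, median -0.28). Elovl6 fell from 24.0, 21.5 and 20.6 CPM with DMSO to 14.0, 13 and 12 with BAM15, with no overlap (log2 fold change -0.76, SE 0.11, edgeR adjusted p = 2.17e-05). Insig2 and Acss2 rose, Insig2 from 60.1, 60.2 and 78.2 to 90.2, 90.8 and 89.9 CPM (log2 fold change 0.46, SE 0.073, edgeR adjusted p = 4.94e-05) and Acss2 by 0.47. The other largest changes were Idi1 (-0.69), Fads2 (-0.63), Cyp51 (-0.60), Fasn (-0.60), Insig1 (-0.55) and Acat2 (-0.46), and the regulators and LXR targets had -0.55 for Insig1 and -0.60 to 0.18, not called, for Srebf1, Srebf2, Abca1, Abcg1 and Mylip. With BAM15 the stress marker sum was 336 to 365 CPM and the myotube marker sum 13490 to 14110, both above their DMSO ranges, and their part was not tested.

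At 5% oxygen without inhibitor, which began before the 10 h of treatment, 27 members were lower and 2 higher (9.78% and 12.3% of all genes, median -0.39), including 7 of 7 mevalonate enzymes, 8 of 11 sterol enzymes and 8 of 9 fatty acid genes. Cyp51, whose reaction consumes oxygen, held 228, 215 and 225 CPM in ambient oxygen and 125, 132 and 125 in 5% oxygen, clear of each other (log2 fold change -0.81, SE 0.048, edgeR adjusted p = 2.07e-12). Fdps held 288, 274 and 289.5 CPM in ambient and 177, 171 and 179 in 5% oxygen, also without overlap (log2 fold change -0.69, SE 0.055, edgeR adjusted p = 6.2e-10). Abcg1 fell from 11.5, 9.04 and 8.13 to 3.48, 2.46 and 2.90 CPM with no shared values (log2 fold change -1.70, SE 0.22, edgeR adjusted p = 2.21e-06), the largest change of the list at 5% oxygen. Insig2 rose from 60.1, 60.2 and 78.2 to 112, 103 and 112 CPM (log2 fold change 0.72, SE 0.072, edgeR adjusted p = 3.37e-08), and Acss2 rose by 0.40.

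Of the other monooxygenases of the pathway, Msmo1 fell (-0.26) and Sqle was not called (0.053). The reductase Dhcr7 was not called either (0.069). The remaining largest falls were Elovl6 (-0.90), Fasn (-0.80), Ebp (-0.80) and Fads2 (-0.79), and the regulators and LXR targets had -0.49 for Srebf1, -0.21 for Srebf2, -0.63 for Insig1 and -0.38 to -0.051, not called, for Abca1 and Mylip, with the call of Srebf2 lost without myotube DMSO replicate 2 (-0.18). The 5 proliferation markers were called lower in the same samples, with a sum of 117 to 145 CPM in ambient and 24.3 to 27.7 CPM in 5% oxygen. The myotube marker sum in 5% oxygen was 13060 to 13350 CPM, above all DMSO samples, and the part of either in the falls was not tested.

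Added to oligomycin, the treatments were compared with oligomycin alone, which these comparisons share. Piericidin lowered 2 members and raised 5 (12.4% and 8.46% of all genes, median 0.061): Acss2 (0.68), Acat2 (0.39), Insig1 (0.37), Nsdhl (0.30) and Fdft1 (0.17) rose and Acaca (-0.43) and Elovl6 (-0.38) fell. Acat2 went from 57.2, 55 and 57.1 CPM to 73.8, 74.0 and 75.7, with every combined sample higher. The calls were lost for Acaca without combined replicate 2 (-0.31), Elovl6 without myotube oligomycin replicate 1 or combined replicate 1 or 3 (-0.36 to -0.33) and Fdft1 without myotube oligomycin replicate 2 or 3 or combined replicate 1 or 2 (0.13 to 0.17). BAM15 lowered 15 and raised 3 (14.1% and 12%, median -0.20), led by Elovl6 (-1.2), Acaca (-0.82), Acss2 (0.78), Insig2 (0.54), Cyp51 (-0.52), Msmo1 (-0.52), Fasn (-0.51) and Idi1 (-0.51). Elovl6 went from 27.2, 24.4 and 24.0 CPM with oligomycin to 12.3, 10.2 and 10.4 with both, a fall of 2.29 times without overlap.

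Low oxygen with oligomycin lowered 18 and raised 3 (16.5% and 16.7% of all genes, median -0.18), led, among members with a mean of at least 50 counts, by Elovl6 (-0.86), Acaca (-0.84), Abcg1 (-0.79), Fads1 (-0.65), Acss2 (0.64), Fdps (-0.54), Insig2 (0.53) and Cyp51 (-0.52), and the call of Abca1, from low counts, was lost without low oxygen with oligomycin replicate 1 or 2 or myotube oligomycin replicate 1, 2 or 3 (-1.05 to -0.71). Within 5% oxygen, oligomycin lowered 2, Insig2 (-0.33) and Sqle (-0.25), and raised 3, Dhcr7 (0.42), Ebp (0.21) and Scd1 (0.17) (2.22% and 2.04% of all genes, median 0.016). Only 2 to 3 were called without low oxygen replicate 2 or 3 or low oxygen with oligomycin replicate 1, 2 or 3. Dhcr7 held 74.1, 75.4 and 73.4 CPM in 5% oxygen and 97.8, 96.6 and 99.6 with oligomycin added. Its groups did not overlap, and its call and that of Insig2 held without each of these libraries.

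For the regulators and LXR targets, piericidin added to oligomycin gave 0.37 for Insig1 and -0.20 to 0.73, not called, for Srebf1, Srebf2, Abca1, Abcg1 and Mylip. BAM15 added gave -0.54 to 0.59, not called, for Srebf1, Srebf2, Insig1, Abca1, Abcg1 and Mylip. Low oxygen with oligomycin gave -0.95 for Abca1, -0.79 for Abcg1 and -0.008 to 0.32, not called, for Srebf1, Srebf2, Insig1 and Mylip. Oligomycin within low oxygen gave -0.26 to 0.79, not called, for Srebf1, Srebf2, Insig1, Abca1, Abcg1 and Mylip. The stress marker sum was 1182 to 1208 CPM with oligomycin alone, 363 to 372 with piericidin added, 437 to 506 with BAM15 added, 283 to 324 with oligomycin in 5% oxygen and 180.3 to 187 in 5% oxygen alone. The proliferation sum was 126 to 136 CPM with oligomycin alone, 123 to 138 with piericidin added, 106 to 120.5 with BAM15 added and 27.8 to 29.6 with oligomycin in 5% oxygen. For the myotube markers it was 13480 to 13710 CPM with oligomycin alone, 13260 to 13500 with piericidin added, 12650 to 13370 with BAM15 added and 12870 to 13160 with oligomycin in 5% oxygen. The part of these sums was not tested.

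**Figure D3:**
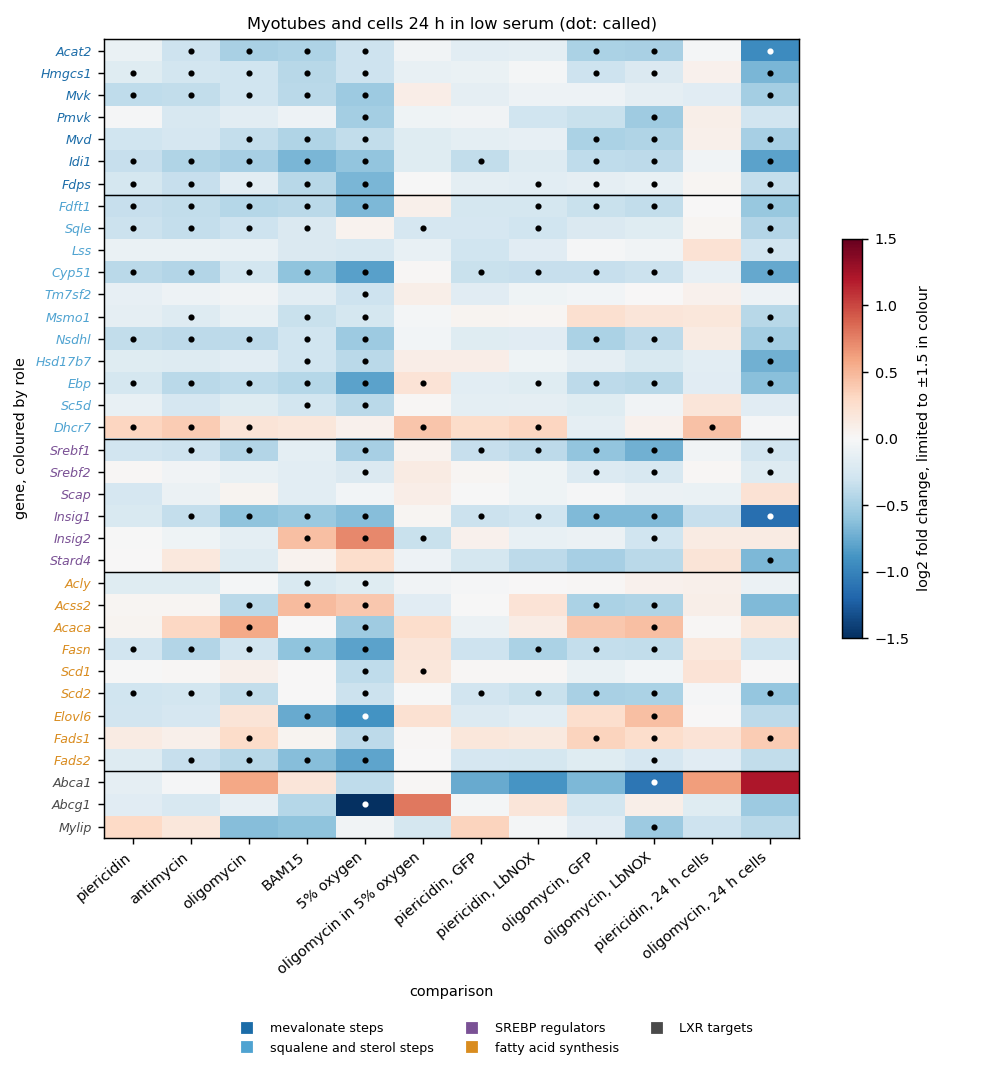
Log2 fold changes (colour, limited to plus and minus 1.5) of the members (rows, by role) in 12 comparisons of myotubes and of cells after 24 h in low serum (columns); dots mark edgeR adjusted p under 0.05. Falls are shallow with single inhibitors, and Insig2, Acss2 and Dhcr7 are among the rows with rises.

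In transduced myotubes the small falls were seen again, with and without LbNOX. Oligomycin lowered 15 members and raised 1 with eGFP alone (12.1% and 13.8% of all genes, median -0.21) and lowered 20 and raised 3 with LbNOX (15.4% and 16.6%, median -0.25). Insig1 held 189 and 188 CPM with DMSO and 116 and 125 with oligomycin in eGFP myotubes. In LbNOX myotubes it held 159.6, 168 and 158 CPM with DMSO and 107, 96.4 and 106 with oligomycin. The oligomycin samples were below the DMSO samples in both, with log2 fold changes of -0.66 (SE 0.07, edgeR adjusted p = 6.21e-06) and -0.66 (SE 0.057, edgeR adjusted p = 5.25e-07). Srebf1 had -0.59 (SE 0.086) with eGFP and -0.72 (SE 0.07) with LbNOX. Other large changes with oligomycin were Scd2 (-0.49), Mvd (-0.48), Acss2 (-0.47), Acat2 (-0.47), Nsdhl (-0.47) and Ebp (-0.39) with eGFP and Mylip (-0.54), Pmvk (-0.53), Acat2 (-0.49), Scd2 (-0.47), Acaca (0.46) and Mvd (-0.46) with LbNOX.

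Piericidin lowered 5 and raised 0 with eGFP (1.72% and 1.37% of all genes, median -0.15), Idi1 (-0.37), Srebf1 (-0.35), Cyp51 (-0.33), Insig1 (-0.32) and Scd2 (-0.29), and lowered 9 and raised 1 with LbNOX (3.54% and 3.24%, median -0.14), led by Fasn (-0.48), Srebf1 (-0.39), Cyp51 (-0.35), Scd2 (-0.34), Dhcr7 (0.33), Sqle (-0.30), Insig1 (-0.30) and Fdft1 (-0.27). LbNOX made no detectable difference to these responses: edgeR called 0 members as an interaction with piericidin (0.00% of all genes, 0 at an unadjusted p under 0.05) and 0 with oligomycin (0.00%, 0 unadjusted), and DESeq2 called 0 in both. Nor was any member called between LbNOX and eGFP myotubes with DMSO (0 by edgeR, 0.0242% of all genes, 8 unadjusted, 0 by DESeq2). The interaction medians were -0.005 and -0.002, with ranges from -0.37 to 0.22 and from -0.42 to 0.36. Among the regulators and LXR targets, piericidin gave -0.35 for Srebf1, -0.32 for Insig1 and -0.75 to 0.34, not called, for Srebf2, Abca1, Abcg1 and Mylip in eGFP myotubes. In LbNOX myotubes it gave -0.39 for Srebf1, -0.30 for Insig1 and -0.89 to 0.18, not called, for Srebf2, Abca1, Abcg1 and Mylip. Oligomycin gave -0.59 for Srebf1, -0.21 for Srebf2, -0.66 for Insig1 and -0.67 to -0.17, not called, for Abca1, Abcg1 and Mylip in eGFP myotubes. In LbNOX myotubes it gave -0.72 for Srebf1, -0.24 for Srebf2, -0.66 for Insig1, -1.08 for Abca1, -0.54 for Mylip and 0.087, not called, for Abcg1. Between the viruses they had -0.40 to 0.46, not called, for Srebf1, Srebf2, Insig1, Abca1, Abcg1 and Mylip. The sum of stress markers was 133 to 134 CPM with DMSO, 214 to 217 with piericidin and 1530 to 1555 with oligomycin in eGFP myotubes. In LbNOX myotubes it was 130 to 137, 204 to 210.5 and 1412 to 1435 CPM. The myotube marker sum was 10220 to 10610, 12390 to 13330 and 11750 to 11960 CPM with eGFP and 10290 to 10950, 12960 to 13590 and 11600 to 12220 with LbNOX, in the same order. The part of either was not tested.

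With 2 samples per eGFP group, single libraries decided several counts. With piericidin and eGFP, 0 to 2 members were called without GFP DMSO replicate 1 or 2 or GFP piericidin replicate 1 or 2, and each of the 5 genes above lost its call without at least 2 of these libraries (-0.43 to -0.23). With piericidin and LbNOX, 5 to 6 were called without LbNOX DMSO replicate 2 or LbNOX piericidin replicate 3. With oligomycin and eGFP, 7 were called without GFP DMSO replicate 1, and the calls were lost for Mvd without GFP DMSO replicate 1 or GFP oligomycin replicate 1 or 2 (-0.49 to -0.41), Acss2 without GFP DMSO replicate 1 or GFP oligomycin replicate 1 or 2 (-0.52 to -0.38), Acat2 without GFP DMSO replicate 1 or GFP oligomycin replicate 1 (-0.39 to -0.31), Nsdhl without GFP DMSO replicate 1 (-0.28) and Srebf2 without GFP DMSO replicate 1 or GFP oligomycin replicate 2 (-0.18 to -0.15). In LbNOX myotubes, piericidin lost the calls of Dhcr7 without LbNOX DMSO replicate 2 or 3 or LbNOX piericidin replicate 1 (0.25 to 0.33), Sqle without LbNOX DMSO replicate 1 or 2 or LbNOX piericidin replicate 1 or 3 (-0.28 to -0.27) and Fdft1 without LbNOX DMSO replicate 1 or 2 or LbNOX piericidin replicate 3 (-0.26 to -0.22). Oligomycin lost those of Acaca without LbNOX DMSO replicate 1 or 2 or LbNOX oligomycin replicate 1 or 3 (0.33 to 0.47), Mylip without LbNOX DMSO replicate 1, 2 or 3 or LbNOX oligomycin replicate 1, 2 or 3 (-0.57 to -0.49) and Abca1 without LbNOX DMSO replicate 1, 2 or 3 or LbNOX oligomycin replicate 1 or 2 (-1.16 to -0.80).

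After 24 h in low serum, piericidin and oligomycin gave different pictures. Piericidin lowered 0 members and raised 1, Dhcr7 (1.36% and 1.39% of all genes, 7 at an unadjusted p under 0.05, 2 of them lower, and 2 called higher by DESeq2). Dhcr7 went from 29.2, 29.1 and 29.8 to 41.8, 37.7 and 39.5 CPM, with every treated sample higher (log2 fold change 0.44, SE 0.076, edgeR adjusted p = 0.0109), and the call was lost without 24 h DMSO replicate 2 or 24 h piericidin replicate 1 or 3 (0.40 to 0.44). Idi1 held 111, 116 and 107 CPM with DMSO, 110.5, 103 and 108 with piericidin and 61.8, 60.0 and 66.3 with oligomycin. The piericidin samples overlapped the DMSO samples and the oligomycin samples did not.

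Oligomycin lowered 19 members and raised 1, Fads1 (0.38) (10.1% and 10.6% of all genes, median -0.40), with 6 of 7 mevalonate enzymes and 8 of 11 sterol enzymes but only 1 of 9 fatty acid genes lower. The largest falls were Insig1 (-1.13), Acat2 (-0.94), Idi1 (-0.80), Cyp51 (-0.76), Hsd17b7 (-0.72), Hmgcs1 (-0.69), Stard4 (-0.67) and Ebp (-0.62). Acat2 held 72.0, 74.4 and 76.4 CPM with DMSO and 35.8, 39.6 and 38.3 with oligomycin, 1.96 times lower with no overlap (log2 fold change -0.94, SE 0.063, edgeR adjusted p = 9.65e-07). Among the regulators and LXR targets, piericidin gave -0.34 to 0.62, not called, for Srebf1, Srebf2, Insig1, Abca1, Abcg1 and Mylip. Oligomycin gave -0.29 for Srebf1, -0.19 for Srebf2, -1.13 for Insig1 and -0.55 to 1.22, not called, for Abca1, Abcg1 and Mylip, and these calls were lost for Insig1 without 24 h DMSO replicate 1, 2 or 3 or 24 h oligomycin replicate 1 or 3 (-1.25 to -0.81), Srebf1 without 24 h DMSO replicate 2 or 3 or 24 h oligomycin replicate 1 or 2 (-0.27 to -0.25) and Srebf2 without 24 h DMSO replicate 1, 2 or 3 or 24 h oligomycin replicate 3 (-0.19 to -0.15). The stress marker sum was 213 to 229 CPM with DMSO and 968 to 996 with oligomycin. The proliferation sum was 206 to 227 and 159 to 174 CPM, and the part of either was not tested. All 9 libraries of these cells lay in outer wells.

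Without inhibitor, members moved in both directions between the cell states, as did all genes. Of the counts that follow, those at 24 h and the number below after 4 days were near the shares of all genes. After 24 h in low serum, 14 members were below and 13 above their level in control myoblasts (32.3% and 31.3% of all genes, median -0.007); after 4 days 10 were below and 18 above (33.7% and 35.7%, median 0.21). Between 24 h and 4 days, 1 member, Stard4 (-0.40), was lower and 21 were higher (16% and 19.6%, median 0.38). The Stard4 call was lost without 24 h DMSO replicate 2 or 3 or myotube DMSO replicate 1 (-0.40 to -0.37). Of the fatty acid genes, 6 of 9 were lower at 24 h than in myoblasts (median -0.81), and 8 of 9 were higher at 4 days than at 24 h. Fasn held 213, 194 and 214 CPM in myoblasts, 90.6, 78.3 and 81.0 at 24 h and 136, 127 and 136 in myotubes. It was lowest at 24 h, and no 2 of the 3 groups overlapped (-1.31 at 24 h, then 0.71). Scd2 stayed near the myoblast level at 24 h, 677, 686 and 700.3 CPM against 641, 619.9 and 656, and reached 1277, 1262 and 1396 in myotubes (log2 fold change 1.08, SE 0.051, edgeR adjusted p = 2.47e-17).

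Of the LXR targets, Abcg1 and Mylip were higher in both low-serum states. Abcg1 held 2.97, 3.25 and 1.86 CPM in myoblasts, 6.76, 7.57 and 7.25 at 24 h and 11.5, 9.04 and 8.13 in myotubes (1.41 and 1.85), and Mylip rose by 1.60 and 2.13. Abca1, with 9 counts in 1 DMSO myoblast sample and 0 in the others, held 16, 22 and 25 counts in the myotube samples. It passed the filter of this fit only through low-serum groups, so its values against myoblasts (1.68 at 24 h, a call lost without 24 h DMSO replicate 2 or 3 or control DMSO replicate 1 or 3 (1.23 to 1.60), and 3.02 at 4 days) are a description, although the counts of higher members above include it. Insig1 and Insig2 both rose, Insig2 from 33.0, 35.0 and 29.1 CPM in myoblasts to 45.7, 57.1 and 55 at 24 h and 60.1, 60.2 and 78.2 at 4 days, in samples that did not overlap with myoblasts (0.70 and 1.07), and Insig1 by 0.89 and 1.30, the first lost without control DMSO replicate 1 (0.63). Scap fell (-0.65 and -0.47). At 24 h and 4 days, Srebf1 had -0.41 and 0.066, the second not called, and Srebf2 had 0.37 and 0.23. Within the sterol route, Dhcr7 (1.27), Ebp (1.36), Mvd (1.14) and Cyp51 (0.83) were higher in myotubes, and Acat2 (-0.54), Msmo1 (-0.30), Sqle (-0.25) and Stard4 (-1.35) lower.

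The other largest differences were Mylip (1.60), Abcg1 (1.41), Elovl6 (-1.35), Fads2 (-1.0), Stard4 (-0.95) and Fads1 (-0.88) at 24 h and Mylip (2.13), Abcg1 (1.85), Acss2 (1.77), Elovl6 (-1.54) and Scd1 (1.5) after 4 days. From 24 h to 4 days they were Dhcr7 (1.31), Acss2 (1.30), Fads2 (1.2), Scd2 (0.97), Scd1 (0.95), Ebp (0.76) and Sc5d (0.64), and the regulators and LXR targets had 0.48 for Srebf1 and -0.14 to 1.34, not called, for Srebf2, Insig1, Abca1, Abcg1 and Mylip. The proliferation sum was 1251 to 1294 CPM in myoblasts, 206 to 227 at 24 h and 117 to 145 in myotubes, and its part in these differences, like that of the serum and transgene, cannot be told apart from the state.

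**Figure D4:**
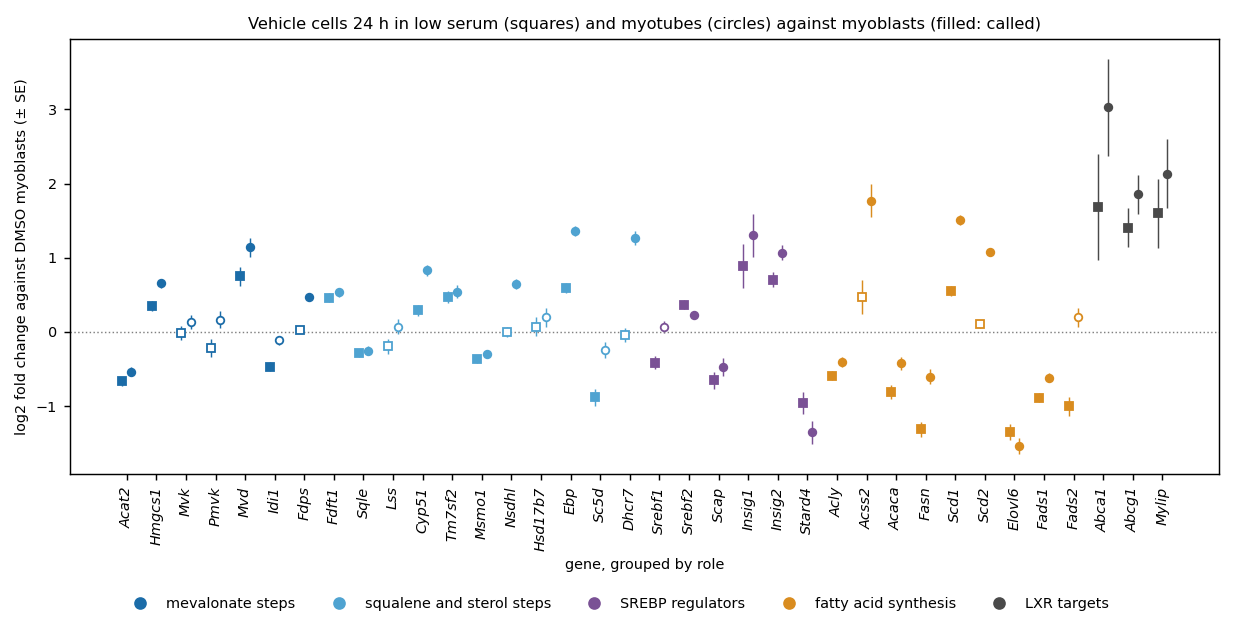
Log2 fold change (± SE) of each member against DMSO control myoblasts in cells after 24 h in low serum (squares) and in myotubes (circles), with DMSO. Most fatty acid genes (6 of 9 called lower) lie below 0 at 24 h and 8 of 9 lie higher at 4 days than at 24 h, while Abcg1 and Mylip lie above 0 in both.

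The response to each inhibitor was then compared between myotubes and control myoblasts in 1 fit. It was higher in myotubes, that is, a smaller fall or a rise, at 31 members for piericidin (25.2% of all genes, median difference 1.26), 28 for antimycin (25.4%, median 0.75) and 30 for oligomycin (15.8%, median 1.01). The counts for antimycin and oligomycin include Abca1, which passed the filter of this fit only through low-serum groups. Among members with a mean of at least 50 counts, the largest differences with piericidin were at Dhcr7 (3.37), Scd2 (3.14), Stard4 (2.90), Idi1 (2.86), Acat2 (2.67), Hsd17b7 (2.32), Hmgcs1 (2.19) and Elovl6 (2.16). With antimycin they were at Stard4 (3.14), Idi1 (3.04), Elovl6 (2.94), Dhcr7 (2.94), Scd2 (2.54), Hmgcs1 (2.37), Acat2 (2.19) and Hsd17b7 (1.99). With oligomycin they were at Abcg1 (3.86), Stard4 (2.56), Idi1 (2.07), Scd2 (1.98), Elovl6 (1.96), Hmgcs1 (1.83), Dhcr7 (1.80) and Acat2 (1.77). For Dhcr7, a fall from 32.5, 29.9 and 28.4 to 4.54, 2.87 and 3.59 CPM with piericidin in myoblasts stood against a rise from 65.8, 70.5 and 76.1 to 91.9, 86.3 and 86.5 in myotubes, with an interaction of 3.37 (SE 0.16, edgeR adjusted p = 1.92e-16). Srebf2 fell in myoblasts and was not called in myotubes, and the interaction was 1.2 (SE 0.084, edgeR adjusted p = 1.42e-12) for piericidin, 0.38 (SE 0.083, edgeR adjusted p = 0.000376) for antimycin and 0.85 (SE 0.084, edgeR adjusted p = 6.46e-09) for oligomycin. Sqle, which fell in both states, had interactions of 0.23 (SE 0.079, edgeR adjusted p = 0.019), 0.057 (SE 0.079, edgeR adjusted p = 0.579, not called) and 0.44 (SE 0.079, edgeR adjusted p = 8.47e-05). The first of these was lost without control DMSO replicate 1, 2 or 3, control piericidin replicate 1, myotube DMSO replicate 1, 2 or 3 or myotube piericidin replicate 1 or 3 (0.13 to 0.21).

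For the other regulators and LXR targets the interactions with piericidin were 1.30 for Srebf1, 1.65 for Insig1, 1.30 for Abcg1 and 1.16 to 2.26, not called, for Abca1 and Mylip. With antimycin they were 0.72 for Srebf1, 1.48 for Insig1, 4.39 for Abca1, 1.07 for Abcg1 and 0.13, not called, for Mylip. With oligomycin they were 0.88 for Srebf1, 1.4 for Insig1, 4.97 for Abca1, 3.86 for Abcg1 and 0.13, not called, for Mylip. Abca1 passed the filter of this fit only through low-serum groups, so its values here are a description. They depend on the prior count of the fit and rest on 1 library, control DMSO replicate 2, which holds the 9 counts. Without that library the antimycin value was -0.028 and the oligomycin value 0.60. The call of Insig1 for oligomycin was lost without control DMSO replicate 2 (1.11), and those of Abcg1 with piericidin without control DMSO replicate 2 or control piericidin replicate 1 (1.06 to 1.09) and with antimycin without control antimycin replicate 1 or 3, control DMSO replicate 1 or 2, myotube antimycin replicate 1 or 3 or myotube DMSO replicate 2 or 3 (0.80 to 1.03).

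**Figure D5:**
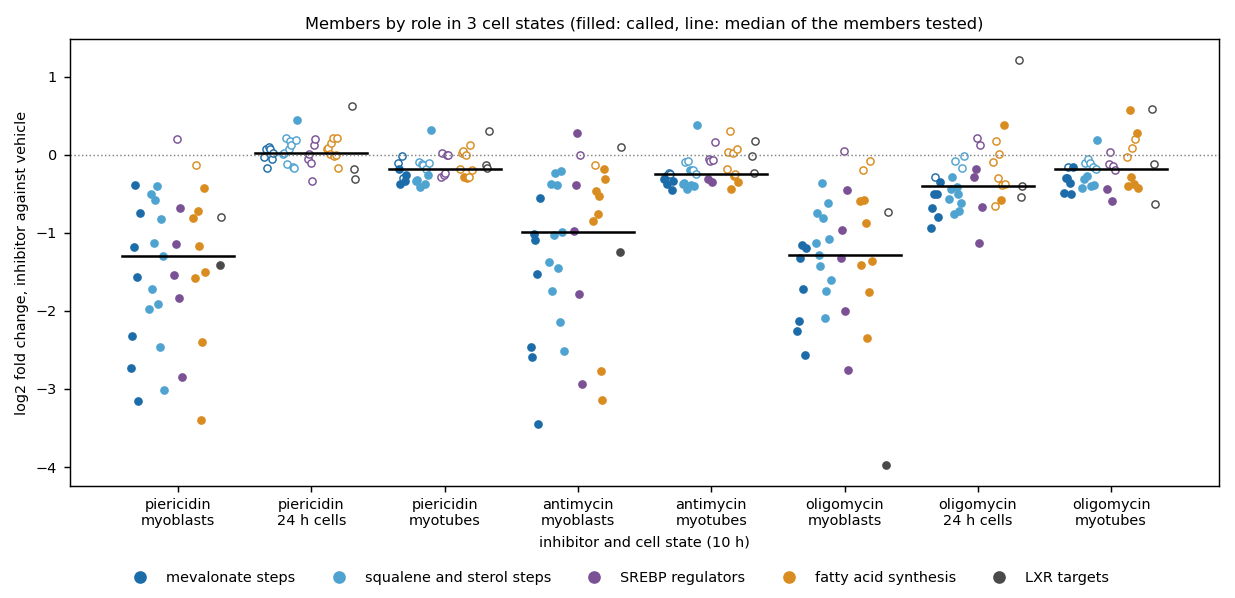
Log2 fold change of each member (point, filled where called) with piericidin, antimycin and oligomycin in control myoblasts, cells after 24 h in low serum and untransduced myotubes, coloured by role; lines are medians over the members. Medians run from -1.30 to -0.99 in myoblasts and from -0.24 to -0.18 in myotubes.

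Of 19 other genes of lipid metabolism that the list leaves out, 17 were tested in myoblasts. With piericidin 9 were lower and 2 higher in control cells (30.8% and 30.9% of all genes), with antimycin 7 and 3 (31.1% and 32.1%), and with oligomycin 6 and 4 (26.3% and 24.5%). Erlin1, an endoplasmic reticulum protein that takes part in sterol sensing, rose with all 3 (1.09, 0.88 and 1.31). The largest falls were Lpin1, which makes diacylglycerol (-1.34), and Slc25a1, the citrate carrier that feeds acetyl-CoA to the cytosol (-1.31), with piericidin, Mmab (-1.28) and Tmem97 (-1.09) with antimycin, and Lpin1 (-1.35) and Acsl3, which activates long-chain fatty acids (-1.07), with oligomycin. The Acsl3 call was lost without control DMSO replicate 2 or control oligomycin replicate 1 or 2 (-0.97 to -0.93). Counts were 2 lower and 1 higher with piericidin in LbNOX cells (3.86% and 5.01% of all genes) and 5 and 4 with antimycin in LbNOX cells (22.9% and 23.3%), where Acsl3 had the largest fall (-1.83). They were 0 by edgeR with 0 at an unadjusted p under 0.05 with piericidin in NDI1 cells, and 6 and 5 in myotubes at 5% oxygen (9.78% and 12.3%).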

How the data were processed

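RNA from 96 C2C12 samples was sequenced, and the authors deposited estimated counts per gene for each sample: kallisto 0.44 was run after bcl2fastq 2.20.0.422 (versions from the submitters' processing notes) against the Ensembl transcriptome of mouse build GRCm38 with the transgene sequences added, and transcript estimates were summed to genes and over the flow cells. The deposited values are whole numbers for 54146 genes and 4 transgenes and were used as they stand. Samples were grouped by their labels into 35 groups. Replicate samples differed from each other by more than sampling noise in all 87 pairs checked. Nothing in the labels says that they came from separate cultures beyond separate wells, so p-values measure only the spread between these samples.

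Libraries were analysed in 6 fits (myoblasts at 10 h, chloramphenicol, untransduced myotubes, transduced myotubes, cells after 24 h in low serum, and the cell states together), which gave 48 comparisons. A gene entered a fit if all replicates of some group held 16 or more counts. TMM normalization and the quasi-likelihood F test of edgeR 4.0.16 (limma 3.58.1, R 4.3.3) were applied with group as the only term, and p-values were adjusted by Benjamini-Hochberg over all genes of the fit with a threshold of 0.05. The SE is the absolute log2 fold change over the root of the F statistic. Counts estimated by kallisto divide reads among like transcripts, so values of close paralogs depend on that division, and no length correction was applied.

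The 36 members, the 19 other lipid genes and the marker lists were chosen with earlier results of these data known. In each comparison, values were given for up to 8 called members with the largest change and a mean of at least 50 counts in the fit, for Srebf1, Srebf2, Insig1, Abca1, Abcg1 and Mylip, for members moving against their role, and for up to 3 of the other lipid genes. Further members were named to cover each role. Alternatives were DESeq2 1.42.0 size factors, the DESeq2 Wald test, no filter on low counts, the replicate number as a block, the well position as a covariate, a fit of only the groups compared, and leaving out each library in turn. Replicate numbers are shared between groups, but same-numbered samples did not deviate together (mean correlation of deviations from group means -0.041 to 0.054 in the 6 fits).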

Additional observations from a re-analysis of the deposited data

Results flagged for a closer look

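Each of the following was noted because the response of members to the same treatment differed between cell lines or cell states by an interaction test in edgeR, and the values are numbers of members with a called interaction.

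Between LbNOX and control myoblasts the response differed at 28 members for piericidin, 22 for antimycin and 8 for oligomycin, all called higher. Of all genes, 22.3%, 24.7% and 3.80% were called higher. For chloramphenicol it differed at 3 members (0.0769% of all genes higher), or 0 to 2 with single libraries left out. Between mitoLbNOX and control myoblasts it differed at 29 members for piericidin (21.5% of all genes higher, 21.4% lower) and 16 for antimycin (15.4% and 16.3%). Between NDI1 and control myoblasts it differed at 30 members for piericidin (21.2% of all genes higher). Between myotubes and control myoblasts it differed at 31 members for piericidin, 28 for antimycin and 30 for oligomycin (25.2%, 25.4% and 15.8% of all genes higher). The counts for antimycin and oligomycin include Abca1. In transduced myotubes the same test with LbNOX called 0 members by edgeR for piericidin and for oligomycin, with 0 at an unadjusted p under 0.05 and 0 by DESeq2. No group held more than 3 samples, so no single library was tested for standing apart from its group.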

How the results depend on the processing

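With DESeq2 size factors in place of TMM, all 48 counts of called members stayed within 1.5 times the reported count. This held for 41 of 48 without the low-count filter, 44 with the DESeq2 Wald test, 46 with the replicate number as a block, 45 of 46 with the well position (which could not be fitted for cells after 24 h in low serum) and 45 of 48 when only the groups compared were fitted. The values that moved were small counts. LbNOX against control myoblasts (2) gave 1 without the filter and 1 with only its groups. mitoLbNOX against control myoblasts (4) gave 7 with DESeq2, and NDI1 against control myoblasts (4) gave 2 without the filter. Chloramphenicol in LbNOX myoblasts (5) gave 12 without the filter and 8 with DESeq2, and its interaction with LbNOX (3) gave 14, 11, and 8 with the well position. Oligomycin within 5% oxygen (5) gave 3 without the filter and 2 with only its groups. Piericidin in eGFP myotubes (5) gave 0 with only its groups, LbNOX against eGFP myotubes (0) gave 1 without the filter, and piericidin at 24 h (1) gave 2 without the filter and 2 with DESeq2. Some values of named genes kept their direction but had no call. These were 33 of 482 without the filter, 21 of 470 with the well position and 23 of 479 with only the groups compared. They were 10 of 482 with the replicate block, 5 of 482 with DESeq2 size factors and 4 of 482 with the DESeq2 Wald test.

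The replicate numbers do not pair the samples. With the replicate block, the interaction of chloramphenicol and LbNOX gave 1 member and oligomycin within 5% oxygen gave 3, and the other 46 counts stayed within 1.5 times.

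Leaving out each library in turn gave 1 to 2 members for LbNOX against control myoblasts, 2 to 3 for NDI1 against control myoblasts, 0 to 5 for chloramphenicol in LbNOX myoblasts, 0 to 2 for its interaction, 2 to 4 for oligomycin within 5% oxygen, 0 to 2 for piericidin and 7 to 15 for oligomycin in eGFP myotubes, 5 to 8 for piericidin in LbNOX myotubes, and 0 to 1 for piericidin at 24 h. In all, 304 of 338 such counts stayed within 1.5 times. Of 3410 values of named genes with 1 library left out, 274 kept their direction but had no call. Over all alternatives together, 11384 values were obtained for members called in the main fits. Of these, 1 changed direction, the Abca1 interaction of antimycin and state without control DMSO replicate 2 (-0.028, not called, in a range up to 4.85 without other libraries). The causes were not tested. Genes at a few counts, such as Abca1 and Abcg1 in myoblasts, are limited by depth.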
